A study of Homo sapiens with 6 samples.

Results

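The 9 genes described here encode the protein parts of the H/ACA ribonucleoprotein and of telomerase, with the factors that assemble, place or trim them. They are DKC1, NOP10, NHP2, GAR1, NAF1, SHQ1, WRAP53, PARN and TERT, taken by gene symbol from a deposited table of 60605 genes, and 9 of 9 were found once each. They were measured by sequencing of poly(A)-selected RNA in MDA-MB-231, a human triple-negative breast cancer cell line, in 3 libraries with a control short hairpin RNA (shControl) and 3 with a hairpin against PUS1 (shPUS1). All 6 cultures thus carry a hairpin, and the methods describe puromycin-selected pLKO.1 lentiviral vectors. The labels number the libraries as biological replicates, but whether they came from separate infections is not given in the sources used here. The p-values thus set the group difference against the spread between these libraries, and may not hold for separate infections. The untreated parental line was not analysed here, and the hairpin of the sequenced cells is not named, so effects of PUS1 loss and of 1 hairpin cannot be told apart.

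Box H/ACA particles consist of a guide RNA, which pairs with the target, and a core of 4 proteins, in which dyskerin, the product of DKC1, turns the chosen uridine of ribosomal or spliceosomal RNA into pseudouridine. PUS1 makes the same modified base in tRNA and other RNAs as a single protein without a guide. Telomerase RNA (TERC) ends in an H/ACA domain and binds the same core proteins, so that dyskerin mutations lower telomerase RNA in dyskeratosis congenita. Telomerase is active in most cancer cell lines and silent in most adult tissues.

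The RNA components of these particles are short, lack a poly(A) tail in their mature form and were almost absent from the libraries, so the data speak of the protein-coding genes. Their sequences from GENCODE release 29 (GRCh38) show the features on which the core proteins and the reverse transcriptase act. SNORA36A and SNORA56 are H/ACA guide RNAs made from introns of DKC1 itself, at chrX:154768528-154768659 and chrX:154774998-154775126 on the plus strand. The last ACA of each listed sequence, taken as the ACA box, is in capitals. It is followed by 3 bases in SNORA36A and by 0 in SNORA56, where the listed sequence ends. For TERC the first 80 bases, at chr3:169764981-169765060 on the minus strand, are shown, with the template that TERT copies into telomeric repeats, bases 46 to 56, in capitals.
SNORA36A: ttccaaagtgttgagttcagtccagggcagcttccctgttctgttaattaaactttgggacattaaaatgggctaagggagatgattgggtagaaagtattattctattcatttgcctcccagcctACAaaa
SNORA56: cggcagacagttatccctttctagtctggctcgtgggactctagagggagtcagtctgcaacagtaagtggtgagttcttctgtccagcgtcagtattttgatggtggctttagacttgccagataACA
TERC: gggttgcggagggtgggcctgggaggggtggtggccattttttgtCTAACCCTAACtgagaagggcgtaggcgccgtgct
TERC had 4 counts in shPUS1 replicate 1 and was listed at 0 in the other libraries. SNORA36A and SNORA56 were listed at 0 in all 6, which allows up to 3 counts in each library. Over the 214 rows whose symbol begins with SNORA, no value exceeded 4 counts, and the sum of a library lay between 1.49 and 8.96 counts. A difference in these RNAs was therefore not detectable at this depth and by this preparation.

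The study designed 3 hairpins against PUS1, and their 21-base targets are shown because a hairpin can also act through partial pairing. The deposited shPUS1 columns are headed knockdown-2, and whether that number stands for shPUS#2 is not given. Capitals mark the bases that pair with positions 2 to 8, the seed, of a guide strand complementary to the whole target.
shPUS#1: tgtcgggtcctcaCAATTCAa
shPUS#2: gcacttcgagaagTACAACCa
shPUS#3: gcacgcacaacttCCACAATt
The longest run of each target found in any transcript of the 9 genes was 7, 8 and 9 bases, against 21 in PUS1. The seed match was present in the longest transcript of 0, 1 and 0 of the 9 genes, and the single match, of shPUS#2, was in WRAP53. Among 14643 tested genes with a transcript in that release, 18.2%, 14.4% and 16.4% held the 3 seed matches. A match of letters is a description of the sequence and not evidence of pairing in the cells.

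The libraries held between 14241505 and 19625998 estimated counts, and values are given below as CPM, the count as a share of the library after TMM scaling. The targeted gene averaged 18.0 CPM (SD 8.27) over the control libraries and 5.80 CPM (SD 0.662) over those with the PUS1 hairpin (n = 3 each, log2 fold change -1.64, edgeR adjusted p = 0.0462). The 6 markers of MDA-MB-231 lay between 190.0 and 2651 CPM, and the luminal genes ESR1, PGR and FOXA1 reached at most 10, 4 and 1 counts in any library and CDH1 at most 20. The other luminal genes were present, KRT19 at 120 to 226, ERBB2 at 51.1 to 73.3, EPCAM at 5.45 to 7.81 and GATA3 at 5.17 to 7.46 CPM. Summed levels of the markers were lower in shPUS1, at 4330 to 4663 against 5211 to 6163 CPM for the MDA-MB-231 list and at 184 to 210 against 241 to 293 CPM for the 5 luminal genes tested of 8. The genes of each list went both ways, with 4 of 6 and 3 of 5 log2 fold changes below 0. Those above 0 were EGFR (0.33) and MSN (0.20), and CDH1 (1.47, on few counts) and GATA3 (0.15). No gene of either list passed the edgeR test. At an unadjusted p under 0.05, 3 of 6 and 1 of 5 were lower, against 12.8% of all genes. DESeq2 called VIM, AXL and KRT19 lower, as did edgeR without shControl replicate 2 (described next), at log2 fold changes of -0.40, -0.48 and -0.68, and the part of these changes in the results below was not tested. Among the controls, shControl replicate 2 stood apart, with a correlation of 0.951 and 0.952 with replicates 1 and 3 across genes, where these 2 had 0.981 with each other. It was the highest of the 3 controls for 8 of the 9 genes and for 42.4% of the 14748 genes tested. The log2 fold changes of the members are therefore also given without it, and that of PUS1 was then -1.20 (adjusted p = 0.00311). That reduced fit called 8.79% of all genes as lower and 9.8% as higher. PUS1 did not pass the edgeR threshold without shControl replicate 1 or without any 1 of the shPUS1 libraries.

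None of the 9 genes rose or fell at an adjusted p under 0.05 in the edgeR quasi-likelihood test. Across the 14748 genes tested, 0.841% fell and 1.74% rose at that threshold. The lowest unadjusted p-values belonged to TERT, NHP2 and PARN, whose mRNAs were at 0.439, 0.618 and 0.646 of the shControl level. At an unadjusted p under 0.05 these 3 of 9 genes were lower, against 12.8% of all genes, and 0 of 9 were higher, against 12.6% of all genes. DESeq2, the tool the study used, placed NHP2 alone past the adjusted threshold, where it called 5.64% of the genes as lower, and limma on FPKM called none of the 8 members it could test. Of the 9 log2 fold changes 8 were below 0, with a median of -0.37, beside a median of -0.03 and 52.7% below 0 over all genes. Without shControl replicate 2 the median of the members was -0.12, 6 of 9 were below 0, and the median over all genes was -0.02. These are levels in bulk RNA, in which fewer cells of a type and less RNA per cell cannot be told apart.

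**Figure D1:**
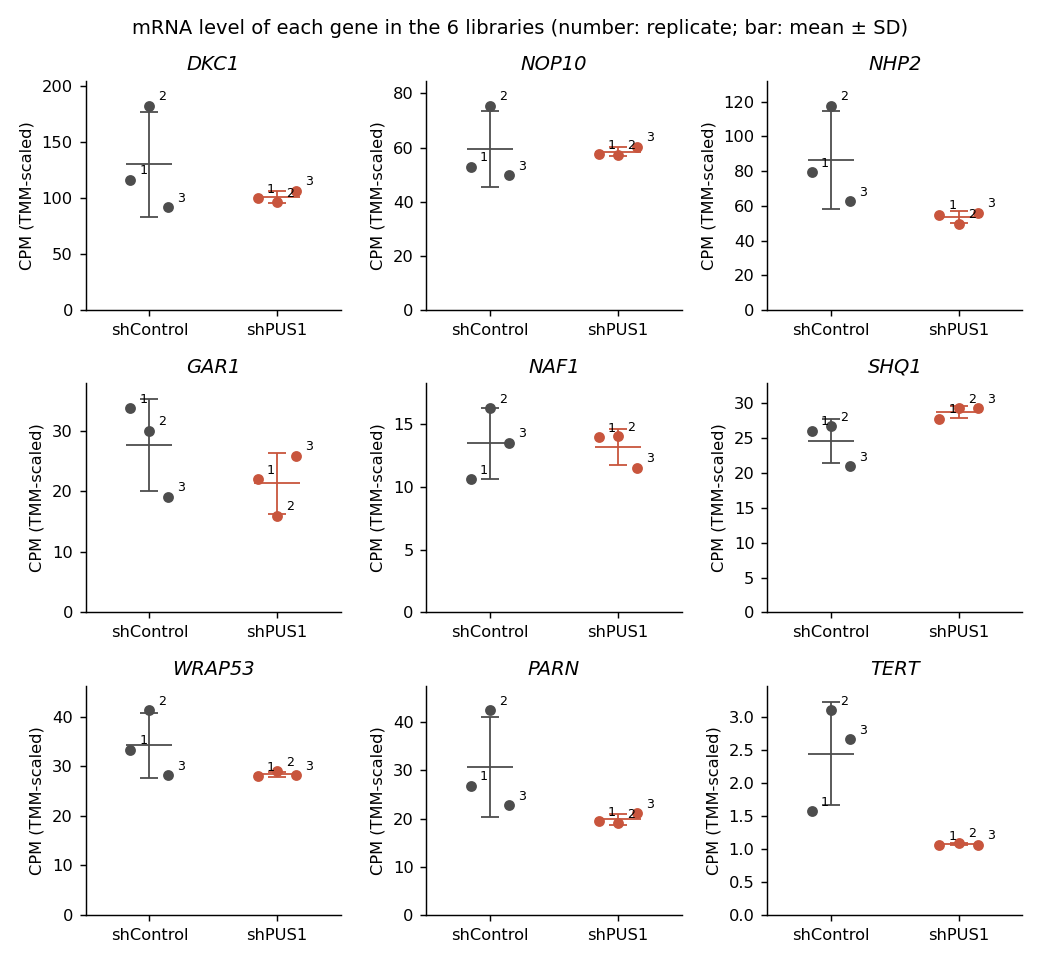
Each panel plots the TMM-scaled CPM (vertical axis, from 0) of 1 gene in the 3 shControl and 3 shPUS1 libraries, with the replicate number beside each point and bars for the mean and SD. The shPUS1 points of NHP2, PARN and TERT lie below all shControl points, those of SHQ1 above them, and shControl replicate 2 is the highest control in every panel but that of GAR1.

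None of the 4 core subunits passed the edgeR test, and their 95% intervals overlapped. That overlap is no test of differences between the genes, whose mRNAs are compared within libraries below. DKC1 (ENSG00000130826, chrX:154762742-154777689), which encodes the pseudouridine synthase of the particle, was at 116, 182 and 91.9 CPM in shControl replicates 1, 2 and 3 and at 99.7, 96.3 and 106 CPM in shPUS1. The shPUS1 values lay inside the range of the controls, of which replicate 2 was the highest. The log2 fold change was -0.37 (SE 0.24, 95% interval -0.92 to 0.17, edgeR adjusted p = 0.352), and without shControl replicate 2 it was -0.05 with an interval from -0.33 to 0.22.

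NHP2 (ENSG00000145912, chr5:178149463-178153894), an RNA-binding core protein, had the lowest fold change of the core. It was at 79.3, 118 and 62.8 CPM in shControl and at 54.9, 49.6 and 56.1 CPM in shPUS1. All shPUS1 values were below the lowest control, as for 17.3% of all tested genes. The group means were 53.6 ± 3.46 and 86.6 ± 28.2 CPM (SD, n = 3 each), and the log2 fold change of -0.69 (SE 0.22, 95% interval -1.21 to -0.18) missed the threshold with an edgeR adjusted p of 0.114. Without shControl replicate 2 the difference was smaller, at -0.41, yet passed the threshold (edgeR adjusted p = 0.0492), in a fit that called 8.79% of all genes as lower. NHP2 was also called with DESeq2 (adjusted p = 0.0435) and without a filter on low counts (edgeR adjusted p = 0.0406, with 1.95% of genes called lower). Its values rest on 907 to 2247 counts per library.

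NOP10 (ENSG00000182117, chr15:34341719-34343136), the small protein that binds the catalytic domain of dyskerin, was at 52.9, 75.5 and 49.7 CPM in shControl and at 57.5, 57.3 and 60.3 CPM in shPUS1. Each shPUS1 library was above control replicates 1 and 3 and below replicate 2. The log2 fold change was -0.02 with a 95% interval from -0.43 to 0.38 (edgeR adjusted p = 0.939), and it was 0.18 with an interval from -0.04 to 0.40 without shControl replicate 2. Both intervals hold changes of either sign.

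GAR1 (ENSG00000109534, chr4:109815510-109824740), which joins last and assists release of the modified RNA, had, of the core genes, the largest SD relative to its mean within shPUS1 (5.01 CPM at a mean of 21.3). It was at 33.8, 30.0 and 19.1 CPM in shControl and at 22.0, 16.0 and 25.9 CPM in shPUS1, so that the groups overlapped. Its log2 fold change of -0.38 (SE 0.26, edgeR adjusted p = 0.382) was -0.32 without shControl replicate 2 and lay between -0.59 and -0.20 with any 1 library left out, at -0.59 without shControl replicate 3.

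**Figure D2:**
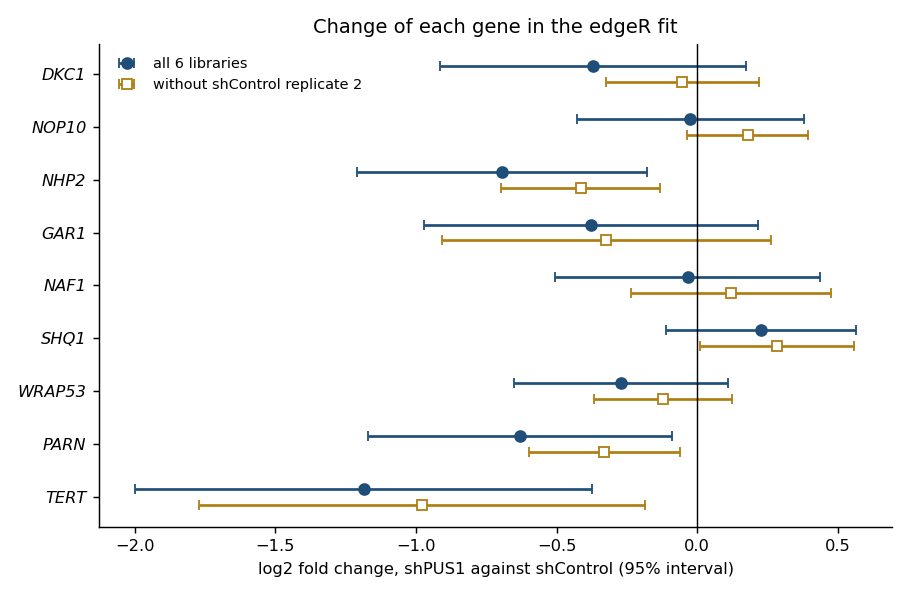
Points give the log2 fold change of each gene in shPUS1 against shControl (horizontal axis) and bars the 95% interval, for all 6 libraries (filled circles) and without shControl replicate 2 (open squares). The intervals of NHP2, PARN and TERT lie below 0 in both fits, those of DKC1, NOP10, GAR1, NAF1 and WRAP53 span 0 in both, and NOP10 and NAF1 change sign. That of SHQ1 spans 0 with all 6 libraries and lies just above 0 (0.01 to 0.56) without shControl replicate 2. The intervals are not adjusted for the number of genes.

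Because the core proteins join 1 particle, their mRNAs were also compared with each other per length, in FPKM, a count divided by exonic length and library total. NOP10 was at 117 ± 23.9 FPKM in shControl and 114 ± 3.25 FPKM in shPUS1, NHP2 at 60.4 ± 17.7 and 37.0 ± 2.23, DKC1 at 30.9 ± 10.1 and 23.8 ± 1.14, and GAR1 at 14.1 ± 3.78 and 10.7 ± 2.49 (SD, n = 3 each). The order NOP10, NHP2, DKC1, GAR1 was the same in 6 of 6 libraries. It depends on the exonic length used as the divisor, 507 bases for NOP10 and 4203 for DKC1, which is the same in each library. In CPM, not divided by length, DKC1 was the highest of these genes in every library. Between neighbours, the ranges of NHP2 (34.5 to 79.8 FPKM) and DKC1 (22.5 to 42.2 FPKM) overlapped over the libraries, and the others did not.

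In the summed FPKM of these 4 mRNAs, NHP2 made up 27.0%, 28.4% and 25.3% in shControl replicates 1, 2 and 3 and 20.5%, 19.4% and 19.9% in shPUS1. NOP10 made up 51.0%, 51.4% and 56.5% in shControl and 60.8%, 63.3% and 60.5% in shPUS1. On this scale shControl replicate 2 no longer stood apart, and neither gene's groups overlapped. The share of NHP2 differed by -6.95 percentage points and that of NOP10 by 8.54, each with p = 0.1 in an exact two-sided permutation test, the smallest p that 3 libraries against 3 allow, and 0.2 after adjustment over the 4 shares. These differences were -6.21 and 7.75 points without shControl replicate 2. As shares of raw counts, not divided by length, they were -5.51 and 5.13 points, and the difference of DKC1, -0.907 in FPKM, was 0.662. The shares of DKC1 (12.8 ± 0.0790% in shPUS1 and 13.7 ± 1.19% in shControl, SD, n = 3) and GAR1 (5.76 ± 1.10% and 6.44 ± 1.72%) overlapped between the groups, with exact permutation p of 0.4 and 0.7. Without shControl replicate 2 the difference of DKC1 was -0.271 points and that of GAR1 -1.26, and GAR1 turned to 0.305 without shControl replicate 1. In the same unit there were 1.89, 1.81 and 2.24 parts of NOP10 for each part of NHP2 in shControl and 2.96, 3.27 and 3.04 in shPUS1. For DKC1 against NHP2 the ratios were 0.500, 0.528 and 0.499 in shControl and 0.619, 0.662 and 0.645 in shPUS1. The ratio of DKC1 to NOP10 did not overlap either, at 0.265, 0.291 and 0.223 in shControl and 0.209, 0.203 and 0.212 in shPUS1. A share of a sum can rise because the other members are lower, and the 4 shares are not independent of each other.

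**Figure D3:**
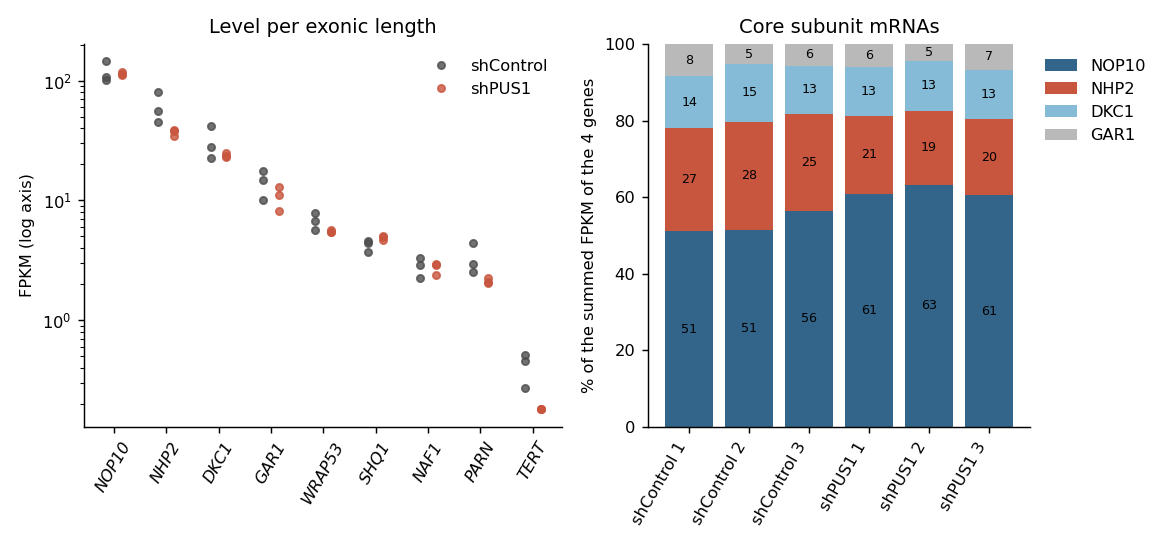
The left panel plots the FPKM (log axis) of the 9 genes in each library, in order of their mean, and the right panel the percent of the summed FPKM of NOP10, NHP2, DKC1 and GAR1 that each gene made up in each library. The NHP2 segment takes 25.3% to 28.4% in shControl and 19.4% to 20.5% in shPUS1, and TERT lies far below the other genes on the left.

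Assembly factors hold the particle before it is complete. SHQ1 (ENSG00000144736, chr3:72749277-72861914) binds free dyskerin and keeps it from other RNA. Its level was 26.0, 26.7 and 20.9 CPM in shControl and 27.8, 29.3 and 29.2 CPM in shPUS1. It was the only member with every shPUS1 value above every control, as were 18.8% of all tested genes, by a log2 fold change of 0.23 (SE 0.15, edgeR adjusted p = 0.358). It was 0.28 (adjusted p = 0.133) without shControl replicate 2. NAF1 (ENSG00000145414, chr4:163110073-163166890) occupies the place of GAR1 during assembly at the site of transcription. It was at 10.6, 16.2 and 13.5 CPM in shControl and at 13.9, 14.01 and 11.5 CPM in shPUS1, with overlap and a log2 fold change of -0.03 (95% interval -0.51 to 0.44, edgeR adjusted p = 0.927), which was 0.12 without shControl replicate 2. In FPKM, the early factor NAF1 was below its replacement GAR1 in every library, by 7.75, 4.49 and 3.45 times in shControl and by 3.85, 2.78 and 5.46 times in shPUS1, and the groups overlapped.

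WRAP53 (ENSG00000141499, chr17:7686071-7703502) encodes the protein that brings H/ACA RNAs of Cajal bodies and telomerase to these bodies. It was at 33.3, 41.3 and 28.2 CPM in shControl and at 28.0, 28.9 and 28.2 CPM in shPUS1. The shPUS1 libraries lay at the level of the lowest control, with a log2 fold change of -0.27 (SE 0.17, edgeR adjusted p = 0.332) that was -0.12 without shControl replicate 2. PARN (ENSG00000140694, chr16:14435700-14632728) is a poly(A)-specific ribonuclease that trims the tails of maturing telomerase RNA and H/ACA RNAs. It was at 26.8, 42.4 and 22.8 CPM in shControl and at 19.5, 19.0 and 21.1 CPM in shPUS1. All shPUS1 values were below all controls, as for 17.3% of all tested genes. The log2 fold change of PARN was -0.63 (SE 0.23, 95% interval -1.17 to -0.09, edgeR adjusted p = 0.151). Without shControl replicate 2 it was -0.33 (adjusted p = 0.0853), and no alternative fit brought its adjusted p under 0.05.

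TERT (ENSG00000164362, chr5:1253147-1295068), the reverse transcriptase of telomerase, had the lowest level and the lowest fold change of the 9. It was at 1.57, 3.09 and 2.66 CPM in shControl and at 1.06, 1.09 and 1.06 CPM in shPUS1. These values rest on 24, 59 and 39 counts against 19, 20 and 18, and the 95% Poisson interval of 18 counts is 10.7 to 28.4 and that of 24 counts 15.4 to 35.7, for counting error only. All shPUS1 values were below all controls, as for 17.3% of all tested genes, although the counting interval of the lowest control overlaps those of the shPUS1 libraries. The log2 fold change was -1.19 (SE 0.35, 95% interval -2.0 to -0.37, edgeR adjusted p = 0.0981). It was -0.98 without shControl replicate 2 (adjusted p = 0.0836) and between -1.42 and -0.98 with any 1 library left out. TERT was listed at 0.18 FPKM in each shPUS1 library, and 7.59% of tested genes had a lower mean FPKM, against 98.3% for NOP10.

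In order of mean FPKM the members after the core were WRAP53 (6.14), SHQ1 (4.56), NAF1 (2.78), PARN (2.71) and TERT (0.297). Neighbours in this order had separate ranges over the 6 libraries except NAF1 and PARN, of which NAF1 was the higher in 4 of 6. In CPM, not divided by exonic length, PARN was above NAF1 in every library, at 19.0 to 42.4 against 10.6 to 16.25 CPM. The mRNA of SHQ1, which binds dyskerin, was thus below that of DKC1 in every library, at 0.162, 0.106 and 0.164 of it in shControl and at 0.201, 0.219 and 0.198 in shPUS1. This ratio did not overlap between the groups, and neither did SHQ1 alone.

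Some reads of NHP2 can come from another gene. NHP2 and RMND5B lie tail to tail on opposite strands of chromosome 5, and 414 of the 1510 exonic bases of NHP2 (27.4%) are exonic in RMND5B too. RMND5B was at 14.7, 25.5 and 16.1 CPM in shControl and at 15.6, 15.1 and 14.8 CPM in shPUS1 (log2 fold change -0.31, edgeR adjusted p = 0.416), well under NHP2 in each library. Whether the counting used the strand is not given in the sources used here, so reads of the shared exons cannot be told apart, and the values of NHP2 are uncertain to that extent. NHP2 was the only member whose estimated counts were not whole numbers, such as 2247.1 in shControl replicate 2 and 907.2 in shPUS1 replicate 2. How its reads were divided between genes is not given. Small RNA genes and unnamed loci that overlap a member had at most 2 counts in any library. Of the 100-base stretches of each member's transcripts, 2.22% of NHP2 occur in its pseudogene copy NHP2P1, 1.02% of DKC1 in SNORA36A and SNORA56, and 0 of the other 7 members in a transcript of another gene on the same strand.

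**Figure D4:**
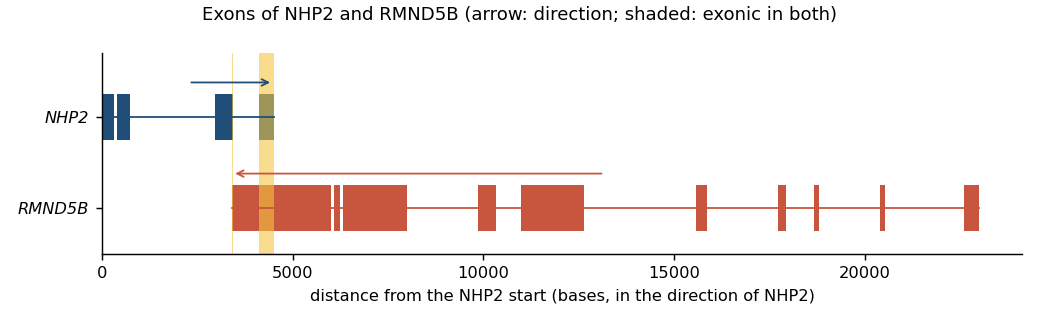
Boxes are exons of all GENCODE 29 transcripts of NHP2 and RMND5B, plotted by distance in bases from the start of NHP2, arrows give the direction of transcription and shading marks bases exonic in both genes. The last exon of NHP2 and the end of the one before it are shaded.

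The level of DKC1 across the 6 libraries, centred on its mean on the log2 scale, was most like those of THAP12, GTPBP6 and HSPB11 among 9744 other genes with a mean of at least 10 CPM. Their root mean square differences from DKC1 were 0.0277, 0.0281 and 0.0399, with a median of 0.367 over all genes compared. THAP12 was at 69.2, 112 and 57.6 CPM in shControl and at 60.9, 59.9 and 63.2 CPM in shPUS1, which repeats the high shControl replicate 2. Among the members, PARN (0.137), WRAP53 (0.146), NHP2 (0.172) and NOP10 (0.193) were closest to DKC1, and SHQ1 (0.347) and TERT (0.495) were farthest.

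The neighbouring machinery was examined with lists from general knowledge. In 6 lists of 55 genes, 54 of which were tested, PUS1 was the only gene past the edgeR threshold. Counts at an unadjusted p under 0.05 stand beside 12.8% lower and 12.6% higher over all genes, signs beside 52.7% below 0, calls by DESeq2 beside 5.64% lower, and calls without shControl replicate 2 beside 8.79% lower and 9.8% higher. The maturation and capping factors of telomerase RNA had 0 of 10 tested genes called by edgeR, 1 by DESeq2, which was TOE1 as lower, and a median log2 fold change of -0.25, with 1 higher and 4 lower at an unadjusted p under 0.05. The lower ones were PABPN1 (-0.67), the nuclear poly(A)-binding protein, TOE1 (-1.20), a deadenylase that acts on telomerase RNA and snRNAs, NOP53 (-0.50) and ZCCHC8 (-0.33), and the higher one was TENT4A (0.30), a poly(A) polymerase. TOE1 rested on a single library, at 65.4 CPM in shControl replicate 2 and 13.4 to 20.7 CPM in the others. Without that library NOP53 fell at -0.71 and TENT4B, another poly(A) polymerase, rose at 0.37 past the threshold, and TOE1 was at -0.38 without a call. These and the following genes without a call were named after their values were seen.

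Among the 9 assembly and nuclear body partners edgeR called 0 and DESeq2 called RUVBL2 as lower, 3 of 9 were lower at an unadjusted p under 0.05, against 12.8% of all genes, and 9 of 9 log2 fold changes were below 0, against 52.7%, with a median of -0.34. RUVBL1 and RUVBL2, the paired ATPases that help to assemble box C/D and H/ACA particles, had log2 fold changes of -0.41 and -0.43 (edgeR adjusted p = 0.148 and 0.0914), and the third was NPM1 (-0.49). RUVBL2 was at 210, 235 and 192 CPM in shControl and at 161, 151 and 163 CPM in shPUS1. These groups did not overlap, as for 17.3% of all tested genes in this direction. RUVBL2 passed the threshold at -0.35 (adjusted p = 0.0322) without shControl replicate 2. In that fit only 6 of the 9 genes were below 0.

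Shelterin, which covers the telomere, had 0 of 6 genes called by edgeR, 1 by DESeq2, which was ACD as lower, and 3 lower at an unadjusted p under 0.05, against 12.8% of all genes, with a median of -0.35 that was -0.23 without shControl replicate 2. ACD and POT1, the partners that recruit telomerase and bind the single strand, had log2 fold changes of -0.54 and -0.45 (edgeR adjusted p = 0.0836 and 0.0987), and both passed without shControl replicate 2 at -0.46 and -0.53 (adjusted p = 0.0208 and 0.0104). TERF2IP was at 0.29. The telomere replication and end processing list had 0 of 8 genes called by edgeR and by DESeq2, 0 at an unadjusted p under 0.05, and a median of -0.19 that was 0.001 without shControl replicate 2.

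The box C/D particle, which places ribose methyl groups with a guide RNA in the way the H/ACA particle places pseudouridine, had 0 of 9 genes called by edgeR, 2 by DESeq2, which were FBL and NOP58 as lower, and a median of -0.24, with 3 lower and 1 higher at an unadjusted p under 0.05. Its methyltransferase FBL was at 292, 261 and 198 CPM in shControl and at 145, 131 and 156 CPM in shPUS1. The groups of FBL did not overlap, as for 17.3% of all tested genes in this direction. FBL had a log2 fold change of -0.80 (edgeR adjusted p = 0.0513). NOP58 and NOP56, which hold the guide RNA, had log2 fold changes of -0.85 and -0.89 (adjusted p = 0.115 and 0.173). NOP56 rested on shControl replicate 2, at 268 CPM where the other controls were at 106 and 102, and was at -0.29 without it. RPAP3, of the assembly chaperone complex, had 0.42 (adjusted p = 0.164). Without shControl replicate 2, FBL and NOP58 fell and RPAP3 rose past the threshold, at -0.77, -0.45 and 0.57, in the fit that called 8.79% of genes lower and 9.8% higher. Among 12 stand-alone pseudouridine synthases edgeR called 0 as higher and 1 as lower, which was PUS1, with a median of -0.30. At an unadjusted p under 0.05, 4 of 12 were lower, against 12.8% of all genes, and 0 higher. These were PUS1, PUS10 (-0.86), PUS7 (-0.76) and PUS7L (-0.43), and 10 of 12 log2 fold changes were below 0, against 52.7%. Without shControl replicate 2 the median was -0.16, 9 of 12 were below 0, and RPUSD1 was also called, as higher at 0.38.

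**Figure D5:**
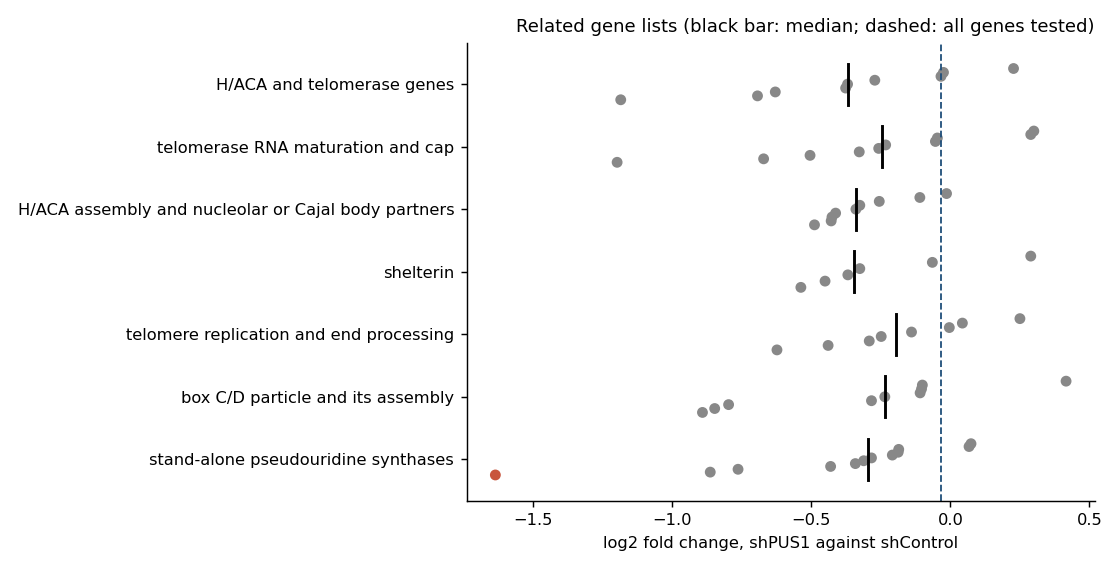
Points are the log2 fold changes (horizontal axis) of the tested genes of each list, black bars the list medians and the dashed line the median of all genes tested. PUS1, at -1.64, is the single point past the adjusted threshold, and all 7 medians lie left of the dashed line.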

How the data were processed

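Poly(A)-selected RNA of 3 shControl and 3 shPUS1 libraries was sequenced in paired ends on an Illumina NovaSeq instrument. HISAT2 and HTSeq 0.6.1 are named in the submitters' processing notes, and the build, annotation, strand setting and handling of reads with several hits are not given in the sources used here. Each library has a deposited column of estimated counts, which the authors did not normalize and of which part are not whole numbers. The deposited FPKM values equal these counts divided by exonic length and library total, within 0.005 FPKM. The coordinates printed are those of the deposited table, and for 99.9% of the 58337 identifiers it shares with GENCODE release 29 (GRCh38) they overlap the gene there.

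Counts were rounded, passed through filterByExpr and TMM scaling, and compared by the edgeR 4.0.16 quasi-likelihood test in R 4.3.3 over 14748 genes, with Benjamini-Hochberg adjustment. A prior count of 2 was used only for the log2 CPM behind the correlations between libraries, and the test kept its default. A gene was called at an adjusted p under 0.05 at any fold. Alternatives used DESeq2 1.42.0 and limma 3.58.1 on log2(FPKM + 1) and log2(FPKM + 0.1) for a mean FPKM of at least 1. Other steps ran in Python 3.11.15 with pandas 2.3.3, scipy 1.17.1, matplotlib 3.10.9 and numpy 2.4.6. The edgeR script was tested on simulated data with changes larger than those of the members. That run therefore does not measure how well changes of the members' size are detected. Poisson intervals hold for counting error alone.

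The members and lists were chosen with earlier results of these data known. Named were the 9 members, PUS1, up to 3 called genes per list, overlapping genes with at least 10 counts and the 3 genes most like DKC1; other genes were named after their values were seen. A result on 1 overlapping gene is not reported here.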

Additional observations from a re-analysis of the deposited data

How the results depend on the processing

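The count of members called higher was 0 with each alternative run. The count called lower was 0 in the main analysis, 1 with DESeq2, 1 without a filter on low counts and 3 at an unadjusted p under 0.05, and 0 to 1 when any library was left out. It was 0 with DESeq2 size factors, library totals without TMM, limma at both pseudocounts and a fold threshold. Genes of the lists past the threshold were 1 in the main analysis, which was PUS1, 6 without a filter and 6 with DESeq2. They were 0 to 10 when a library was left out, with 10 without shControl replicate 2. The count was 0 without shControl replicate 1 and without any 1 of the shPUS1 libraries, so the targeted gene itself was not called there. Replicate numbers gave no pairing, with residual correlations of -0.053, -0.026 and -0.19. With the replicate number as a block 0 list genes, PUS1 included, and 0 members were called. Of 115 alternative log2 fold changes of the members, 108 kept their direction and side of the threshold, 3 of NHP2 passed it and 4 had the other sign. These were NOP10, at 0.001 with the block and between -0.15 and 0.18 with a library left out, and NAF1, between -0.18 and 0.12; the cause was not tested. As shares of raw counts, not divided by length, the differences were 0.662 percentage points for DKC1, 5.13 for NOP10 and -5.51 for NHP2. Called genes of all 14748 were 380 in the main analysis. TERT was not in the limma fits, since its mean FPKM is under 1. Depth limits the precision of TERT, with 18 to 59 counts.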
